A study of Homo sapiens with 21 samples.

Results

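The genes described here are 8 transcription factors that hold a liver cell in its hepatocyte state: HNF4A, NR5A2, FOXA1, FOXA2, FOXA3, CEBPA, CEBPB and PROX1. They were chosen by name, and all 8 were found by Ensembl identifier among the 37637 features of the gene count table. All 8 also passed the filter on low counts, which left 17468 features for testing. The cells were HepG2, a human line from a liver tumour that keeps much of the hepatocyte programme in culture. They were switched from serum-containing to serum-free DMEM and kept for 6 h with caffeine at 0 (the untreated control), 0.01, 0.1, 1, 10, 100 or 1000 µM. Each of the 7 dose groups had 3 libraries of poly(A) RNA, described by the submitters as biological replicates, which makes 21 in all. No gene was altered and all groups shared the serum-free medium. As HepG2 is 1 tumour line, spread between libraries is not spread between people.

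HNF4A and NR5A2 are nuclear receptors that bind the control regions of apolipoprotein, clotting factor and bile acid genes. FOXA1, FOXA2 and FOXA3 are forkhead proteins known as pioneer factors, which bind their sites in closed chromatin and open it for others. CEBPA and CEBPB are basic leucine zipper proteins: the first is known for restraining growth in mature hepatocytes, the second for the acute phase response and the regenerating liver. PROX1 is a homeobox protein of early liver development that also acts as a co-repressor of HNF4A and NR5A2. Many of these genes are known to bind and control each other's promoters.

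HNF4A lies at chr20:44355700-44434596 on the plus strand, FOXA2 at chr20:22581005-22585455 on the minus strand and CEBPB at chr20:50190734-50192689 on the plus strand. CEBPA lies at chr19:33299934-33302564 on the minus strand and FOXA3 at chr19:45863989-45873797 on the plus strand. FOXA1 lies at chr14:37589984-37596059 on the minus strand. NR5A2 at chr1:200027602-200177424 and PROX1 at chr1:213983181-214041502 are both on the plus strand. All positions are GRCh38, from GENCODE release 29, in which CEBPA and CEBPB are genes of 1 exon.

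Promoter windows show how unlike the start regions of these genes are. RefSeq (GRCh38.p14) gave windows for 6 of the 8 factors, 9 in all, of which the 250 bases before the start were read. FOXA2 and PROX1 had no entry. Shown here are both windows of HNF4A, whose upstream start lies far from a downstream one inside the gene, and 1 window each for CEBPA, CEBPB and NR5A2, the first 2 being the factors with lower counts under caffeine and the last the one with the fewest counts. Capitals mark a forkhead (FOXA) motif.
HNF4A, upstream start, chr20:44355449-44355698, plus strand: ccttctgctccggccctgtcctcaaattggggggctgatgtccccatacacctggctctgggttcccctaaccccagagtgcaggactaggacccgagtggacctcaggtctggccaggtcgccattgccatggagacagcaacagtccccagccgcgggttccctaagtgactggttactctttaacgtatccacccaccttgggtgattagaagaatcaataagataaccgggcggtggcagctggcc
HNF4A, downstream start, chr20:44400989-44401238, plus strand: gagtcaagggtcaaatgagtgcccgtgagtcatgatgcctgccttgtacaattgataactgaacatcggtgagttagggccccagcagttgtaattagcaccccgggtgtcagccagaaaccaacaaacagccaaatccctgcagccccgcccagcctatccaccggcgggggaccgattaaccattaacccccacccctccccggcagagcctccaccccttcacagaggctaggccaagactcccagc
CEBPA, chr19:33302535-33302784, minus strand: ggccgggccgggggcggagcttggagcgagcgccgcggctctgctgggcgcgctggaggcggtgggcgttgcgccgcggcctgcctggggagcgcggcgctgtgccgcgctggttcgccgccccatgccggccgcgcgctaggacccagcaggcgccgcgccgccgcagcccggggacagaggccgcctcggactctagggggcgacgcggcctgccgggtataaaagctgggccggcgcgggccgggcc
CEBPB, upstream of its 2 windows, chr20:50190333-50190582, plus strand: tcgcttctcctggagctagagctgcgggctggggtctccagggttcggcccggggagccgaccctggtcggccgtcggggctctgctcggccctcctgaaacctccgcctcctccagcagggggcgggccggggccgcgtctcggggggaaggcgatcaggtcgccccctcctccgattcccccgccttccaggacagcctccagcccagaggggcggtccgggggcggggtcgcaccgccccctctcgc
NR5A2, downstream of its 2 windows, chr1:200042341-200042590, plus strand: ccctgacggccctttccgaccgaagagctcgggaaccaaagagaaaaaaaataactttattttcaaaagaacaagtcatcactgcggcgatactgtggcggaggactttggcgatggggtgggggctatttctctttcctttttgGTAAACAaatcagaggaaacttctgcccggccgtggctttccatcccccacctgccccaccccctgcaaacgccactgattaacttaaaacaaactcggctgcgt

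The CEBPA window was 81.2% G and C with 41 CG pairs, and the CEBPB window 75.6% with 25. The HNF4A windows were 58.4% and 58% G and C, each with 8 CG pairs, and the median over all 35116 windows in the table was 58%. The last 30 bases of the CEBPA window lie inside the GENCODE exon, and the counts of HNF4A sum transcripts from both of its starts. Motifs searched on both strands included TGTTTAC and TGTTTGC for FOXA, CAAAGTCCA for HNF4A, TTGCNNAA for C/EBP, CAAGGTCA for NR5A2, TGACGTCA for the cAMP response element and TGCGTG for the AHR core. Among the 9 windows these motifs had 2 matches, both to FOXA motifs. GTAAACA, the reverse complement of TGTTTAC, lies 105 to 99 bases before the NR5A2 start, and GCAAACA, that of TGTTTGC, lies 235 to 229 bases before the FOXA1 start. TGTTTAC was present in 2.98% of all windows and TGTTTGC in 3.23%. For the others named here the shares were 0.325% for CAAAGTCCA, 9.05% for TTGCNNAA, 1.14% for CAAGGTCA, 1.65% for TGACGTCA and 7.97% for TGCGTG. A match is a string of letters and was not tested for binding here.

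Libraries held between 28043623 and 40827833 counts, with a median of 32497612. Counts from mitochondrial genes made up 4.96% to 14.2% of a library, with a median of 7.78%, and 3 libraries were above 11%: replicate 1 at 0.01 µM, replicate 3 at 1 µM and replicate 1 at 10 µM. The hepatocyte label held: all 7 hepatocyte markers, among them ALB, AFP and APOA1, were tested. Their summed level lay between 16100 and 22200 CPM (counts scaled to the size of the library) in each library. This sum was not the same in all dose groups. Every control library summed to 19700 CPM or more. Apart from the 0.1 µM group, every treated library summed to 18900 CPM or less. The 0.1 µM group spanned 17400 to 21200 CPM and overlapped the controls. The difference in this sum was not tested. PTPRC, CD3E, COL3A1, DCN and KRT7, which mark leukocytes, fibroblasts and bile duct cells, had 0 or 1 count in each library. Other markers on these lists were expressed: among leukocyte markers CD68 had 1954 to 3659 counts and CD14 14 to 47, and among fibroblast markers ACTA2 had 1136 to 2379, PDGFRB 123 to 359 and COL1A1 0 to 6. The leukocyte list summed to 54 to 109 CPM per library. VWF and CDH5, the 2 of 4 endothelial markers found among the counted features, summed to at most 0.345 CPM. PECAM1 and KDR of that list, and CFTR of the bile duct list, were not found. KRT19 and SOX9, which bile duct cells and many liver tumour lines express, had 2696 to 6922 and 3160 to 4749 counts.

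Without caffeine the 8 factors covered a wide range of levels. Levels were divided by the union of all annotated exons of a gene, 7311 bases for HNF4A and 2631 for CEBPA. Compared in this way per kilobase, CEBPA stood at 57.7 ± 7.94 CPM per kb (SD, n = 3) and HNF4A at 44.7 ± 2.36. CEBPB followed at 16.8 ± 2.7, FOXA2 at 16.7 ± 1.81 and FOXA1 at 14.6 ± 0.719. FOXA3 stood at 11.6 ± 0.846 and PROX1 at 7.25 ± 0.539. The libraries of CEBPA (48.6 to 62.5) lay above those of HNF4A (43.0 to 47.4), whereas CEBPB, FOXA2 and FOXA1 overlapped each other. NR5A2 was far below the rest at 0.0743 CPM per kb, from 13 to 20 counts per library.

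Per kb of this exon union, the order of the top pair was the opposite at 10 µM. HNF4A lay between 51.3 and 53.8 CPM per kb and CEBPA between 37.0 and 42.3. At 1 µM HNF4A (46.5 to 50.6) was also above CEBPA (39.0 to 45.3) in every library. By the same measure, CEBPB and PROX1 drew level at 10 µM. CEBPB stood above PROX1 in every library at 0 µM. At 10 µM the ranges of 7.76 to 10.6 for CEBPB and 9.75 to 10.9 for PROX1 overlapped. These are levels set side by side, with no test between genes, and their order depends on the exon length used. In CPM the mean of HNF4A was above that of CEBPA at 0 µM (327 against 151.9) and at 10 µM (381.5 against 103.7). In CPM PROX1 was above CEBPB at 0 µM (64.75 against 32.79) and at 10 µM (93.03 against 18.39).

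**Figure D1:**
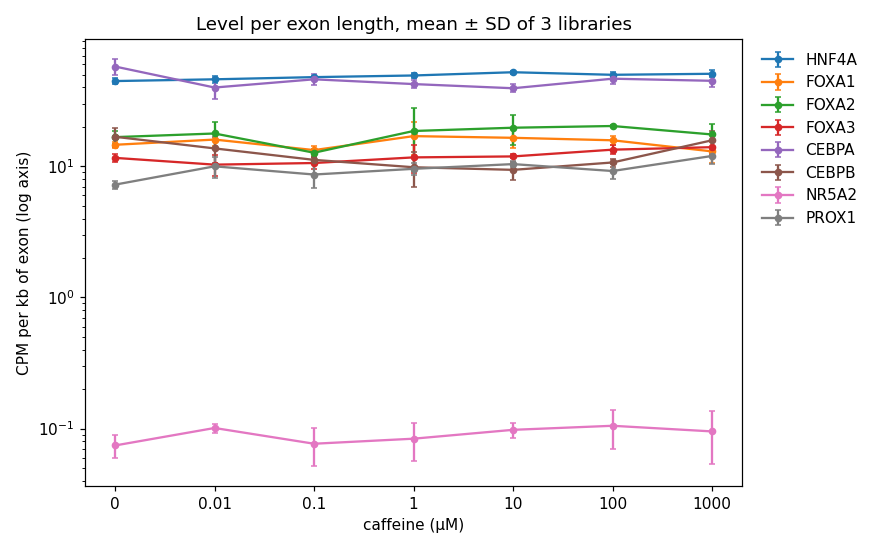
Level of each factor per kilobase of exon (CPM per kb, log axis) against caffeine dose in µM, as the mean and SD of 3 libraries. HNF4A and CEBPA run together at the top between 39.4 and 57.7, 5 factors lie between 7.25 and 20.3, and NR5A2 stays near 0.1.

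The factors differed in how steady they were between libraries of 1 dose. HNF4A was the steadiest, with a median coefficient of variation within doses of 4.78%. CEBPA stood at 9.14%, FOXA1 at 10.1%, FOXA3 at 10.2% and PROX1 at 12.3%. CEBPB at 16.1% and FOXA2 at 19.2% were more variable, and NR5A2 was the most variable at 31.8%. Over all 21 libraries the highest level was 1.27 times the lowest for HNF4A, 2.91 times for FOXA2 and 3 times for CEBPB.

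Each dose was compared with 0 µM by edgeR's quasi-likelihood test, with p-values adjusted over all 17468 features by the Benjamini-Hochberg method and called at an adjusted p under 0.05. All 6 comparisons share the 3 libraries at 0 µM, so a high or low control library moves every one of them. At 1000 µM, 2 of the 8 factors were called, PROX1 higher and CEBPA lower. Over all features 41.2% were called at this dose, 20.6% higher and 20.6% lower, so the share among the factors was not above the background. In bulk RNA a lower level in every cell and a smaller share of cells with the transcript cannot be told apart. At 10 µM 4 of the 8 were called, HNF4A and PROX1 higher and CEBPA and CEBPB lower, against 22% of all features (11.3% higher and 10.7% lower). At 0.01 µM 1 factor, CEBPA, was called lower, against 4.95% of all features (2.87% higher and 2.08% lower).

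No factor was called at the other 3 doses. At 0.1 µM and at 1 µM 0% of all features were called (0% higher and 0% lower), and at 100 µM 6.02% (2.74% higher and 3.27% lower). At an unadjusted p under 0.05 the edgeR test gave 2 of the 8 factors at 0.1 µM, 3 at 1 µM and 4 at 100 µM, beside 2651, 3980 and 4467 of all 17468 features. DESeq2 called 0 factors at 0.1 µM, 2 at 1 µM (CEBPA and CEBPB) and 1 at 100 µM (CEBPB), beside 521, 1410 and 2078 of all features. The median log2 change of the 8 factors at 1000 µM was 0.13, and that of all features was -0.03.

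**Figure D2:**
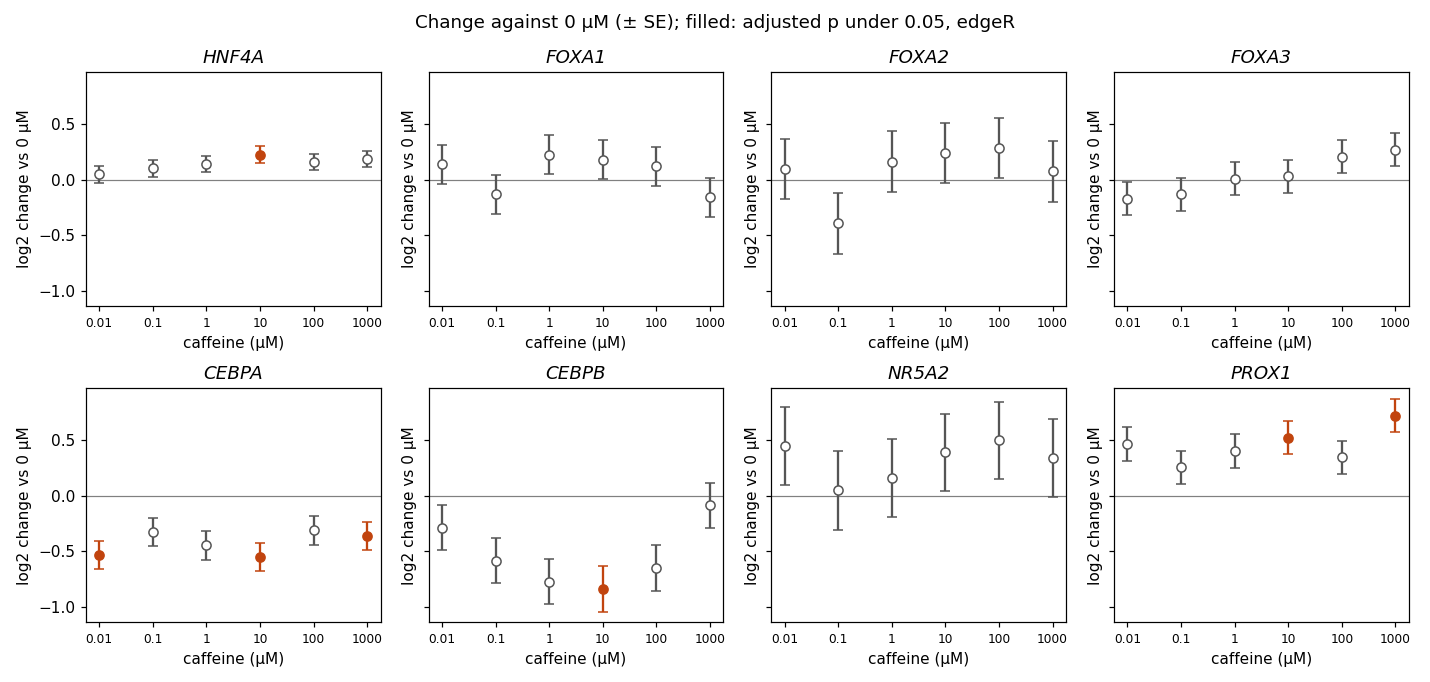
Log2 change of each factor against 0 µM, with its standard error, at the 6 caffeine doses in µM. Filled points passed an adjusted p of 0.05 in edgeR; PROX1 is above 0 and CEBPA below 0 at every dose, while CEBPB is lowest at 10 µM (-0.83) and near 0 at 1000 µM (-0.09).

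PROX1, the homeobox co-repressor, had the best supported change of the 8 factors. Without caffeine its libraries stood at 62.1, 61.9 and 70.3 CPM, and at 1000 µM at 107, 93.2 and 120. All 3 libraries at 1000 µM were above all 3 controls. The rise was 1.65-fold (log2 change 0.72 ± 0.15, SE; edgeR adjusted p = 0.00107), and the call held in all 15 alternatives tried, among them leaving out each library of the 2 groups and a fit with the mitochondrial share as a covariate.

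PROX1 was already higher at 10 µM, where its libraries stood at 95.1, 96.9 and 87.0 CPM, again all above the controls. That difference was 1.44-fold (log2 change 0.52 ± 0.15; edgeR adjusted p = 0.0209). The call at 10 µM was lost without replicate 1 or 2 at 0 µM (adjusted p 0.0848 and 0.0732) and without replicate 1 or 2 at 10 µM (0.0721 and 0.0724). At the doses between and below, the libraries stood at 109, 78.4 and 81.5 CPM (0.01 µM), 78.5, 92.6 and 60.8 (0.1 µM), 82.8, 95.8 and 77.8 (1 µM) and 74.3, 78.8 and 93.7 (100 µM). Of these 12 libraries only replicate 3 at 0.1 µM lay at or below a control. None of the 4 doses passed the test (edgeR adjusted p 0.0687, 0.437, 0.135 and 0.16). PROX1 passed at 0.01 µM with DESeq2 (adjusted p = 0.0203) and at 100 µM in a fit of only the 2 groups (edgeR adjusted p = 0.0336).

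CEBPA, the growth-restraining leucine zipper factor, was lower with caffeine. Its control libraries stood at 164, 164 and 128 CPM, and those at 10 µM at 97.3, 103 and 111, all below the lowest control. The fall was to 0.683 of the control level (log2 change -0.55 ± 0.13; edgeR adjusted p = 0.00792). It passed the threshold of 0.05 in every alternative tried at this dose.

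At 0.01 µM CEBPA stood at 84.3, 111 and 120 CPM, also below every control, with a level of 0.692 of the control (log2 change -0.53 ± 0.13; edgeR adjusted p = 0.0392). The library at 84.3 CPM was 1 of those with a high mitochondrial share (11.7%). Without that library the adjusted p was 0.122, without replicate 2 at 0.01 µM it was 0.0598, and without replicate 1 or 2 at 0 µM it was 0.174 and 0.148. With the mitochondrial share in the fit it was 0.0607. At 1000 µM the libraries stood at 107, 129 and 118 CPM, of which 2 of 3 were below every control. This difference passed (level 0.777 of the control, log2 change -0.36 ± 0.13; edgeR adjusted p = 0.0303) and was lost without replicate 1 or 2 at 0 µM (0.12 and 0.113) and without replicate 1 or 3 at 1000 µM (0.149 and 0.0774).

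The third control library, at 128 CPM, lay within reach of the treated ones, and it sets how far the CEBPA groups overlap. At 0.1 µM the libraries stood at 122, 110 and 132 CPM, at 1 µM at 119, 103 and 113, and at 100 µM at 126, 131 and 111. The log2 changes were -0.33, -0.44 and -0.31, with edgeR adjusted p-values of 0.24, 0.0859 and 0.14. Every dose thus had a lower mean than the control, and 3 of the 6 passed the test.

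CEBPB, the acute phase leucine zipper factor, was lowest at the middle doses. The control libraries stood at 31.7, 38.5 and 28.1 CPM and those at 10 µM at 19.4, 20.7 and 15.2. All 3 at 10 µM were below every control, with a level of 0.561 of the control (log2 change -0.83 ± 0.21; edgeR adjusted p = 0.0102). The call was lost without replicate 2 at 0 µM, the highest control, where the adjusted p was 0.051.

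On either side of 10 µM the CEBPB libraries stood at 12.9, 20.9 and 24.0 CPM (1 µM) and 22.4, 20.8 and 19.5 (100 µM). All 6 were below every control, but neither dose passed (edgeR adjusted p 0.0848 and 0.0638). The difference at 100 µM passed in 4 of 15 alternatives, among them DESeq2 (0.0264) and a fit of only the 2 groups (0.00979). That at 1 µM passed in 2 of 15. At 0.1 µM the libraries stood at 21.7, 20.8 and 23.2 CPM, again below every control (edgeR adjusted p = 0.197). At 0.01 µM they stood at 19.9, 28.9 and 31.8, which overlapped the controls (0.395). At 1000 µM the CEBPB libraries stood at 24.64, 33.96 and 34.14 CPM, 1 below every control and 2 among them, with a log2 change of -0.09 ± 0.20 (edgeR adjusted p = 0.765).

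HNF4A, the nuclear receptor with the highest count of the 8 factors, moved little. Its libraries stood at 314, 347 and 320 CPM without caffeine and at 377, 393 and 375 at 10 µM. The groups did not overlap, and the difference of 1.17-fold passed narrowly (log2 change 0.22 ± 0.07; edgeR adjusted p = 0.0401). It was lost in 9 of 15 alternatives: among single libraries, without replicate 1 or 3 at 0 µM (0.156 and 0.0911) or without replicate 1, 2 or 3 at 10 µM (0.0939, 0.134 and 0.0507).

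At 1000 µM HNF4A stood at 397, 356 and 361 CPM, again above every control, with a log2 change of 0.18 ± 0.07 that missed the threshold (edgeR adjusted p = 0.057). It passed without replicate 2 at 0 µM (0.0458), without replicate 2 at 1000 µM (0.0322) and with DESeq2 (0.00444). The libraries were at 312, 358 and 342 CPM at 0.01 µM, at 344, 361 and 347 at 0.1 µM, at 340, 370 and 370 at 1 µM and at 349, 366 and 379 at 100 µM. The group at 0.01 µM spanned the controls on both sides, and the higher doses lay at their top or above.

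NR5A2, the nuclear receptor of bile acid synthesis, was too scarce for a precise estimate. Its counts ran from 13 to 34 per library, or 0.402 to 1.08 CPM. The log2 changes had standard errors of about 0.35 and none passed the test, the size at 1000 µM being 0.34 ± 0.35 (edgeR adjusted p = 0.456). At this depth smaller changes could not be told from none.

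The forkhead factors FOXA1 and FOXA2 showed no called change against 0 µM at any dose in the fit over all 7 groups. FOXA1 stood at 54.7, 59.6 and 59.7 CPM at 0 µM and at 53.5, 41.6 and 60.6 at 1000 µM (log2 change -0.16 ± 0.17; edgeR adjusted p = 0.486). FOXA2 stood at 39.8, 41.6 and 48.7 CPM at 0 µM and at 53.2, 36.0 and 47.7 at 1000 µM (0.07 ± 0.27; 0.852). In both cases the treated libraries lay on either side of the controls.

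Both varied most at 1 µM, where the libraries differed within the dose more than the doses differed from each other. FOXA2 stood at 25.4, 46.2 and 73.8 CPM there, and FOXA1 at 46.9, 71.0 and 85.2. The mitochondrial shares of the same libraries were 4.96%, 7.8% and 14.2%, in the same order. At 100 µM, by contrast, FOXA2 was tight at 53.0, 51.8 and 53.6 CPM, above every control. Its log2 change was 0.28 ± 0.27 (edgeR adjusted p = 0.543), with the spread estimated over all 7 groups. In a fit of only the 2 groups it passed (log2 change 0.28, edgeR adjusted p = 0.0376), as did 4015 features in all.

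FOXA3, the forkhead factor known for its part in glucose metabolism, had its highest mean at the top dose. It stood at 27.0, 26.1 and 23.4 CPM at 0 µM and at 34.4, 29.8 and 27.8 at 1000 µM. All 3 treated libraries were above every control, but the difference of 1.2-fold did not pass (log2 change 0.27 ± 0.15; edgeR adjusted p = 0.161). Its other libraries lay between 17.9 CPM, at 0.01 µM, and 32.5, at 1 µM.

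**Figure D3:**
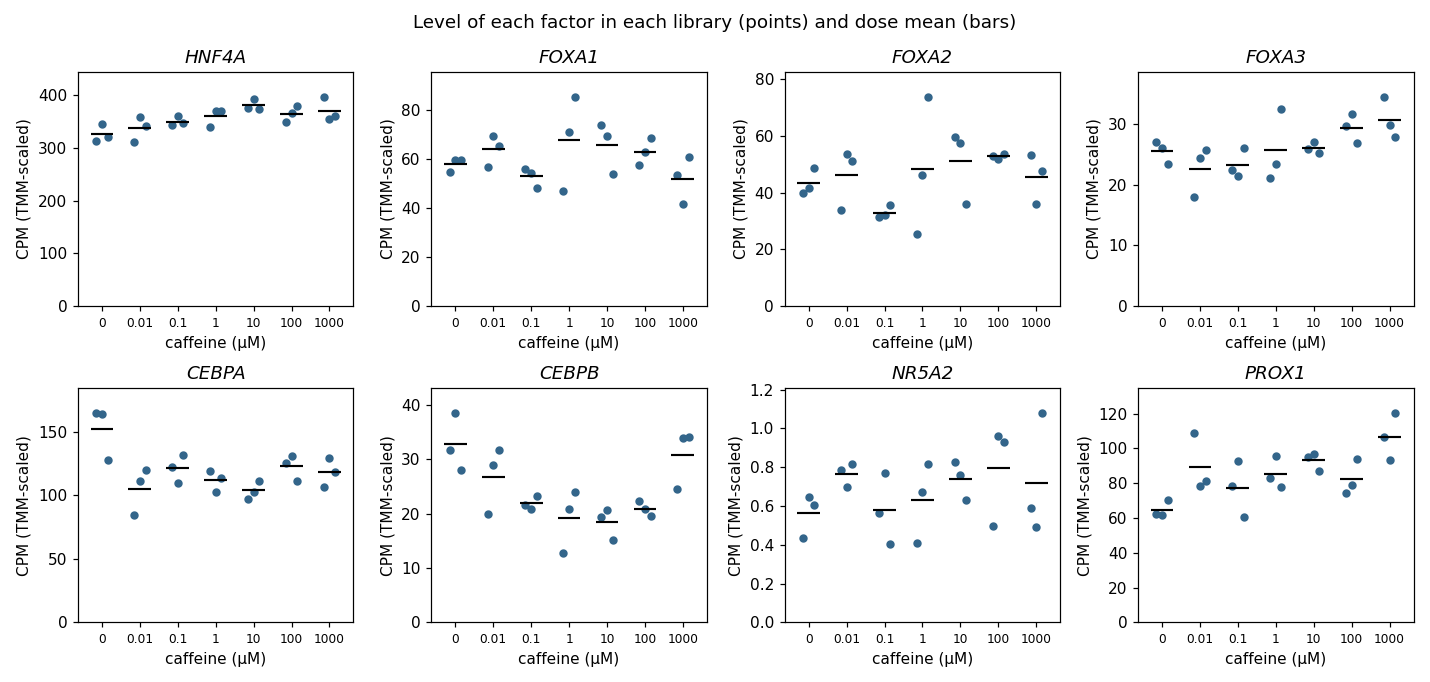
Level of each factor in CPM in each of the 21 libraries (points) against caffeine dose in µM, with the dose mean as a bar. CEBPA is below its 2 upper controls at every dose, CEBPB dips to 18.4 at 10 µM, and PROX1 stands highest at 1000 µM with a mean of 107.

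The 3 lowest doses, 0.01, 0.1 and 1 µM, were also combined as 9 libraries. Against 0 µM, 2 of the 8 factors were called, CEBPA and CEBPB, both lower, against 8.8% of all features (4.95% higher and 3.86% lower). CEBPA had 8 of 9 libraries below every control (log2 change -0.43 ± 0.10; edgeR adjusted p = 0.0235), and the call was lost without replicate 1 or 2 at 0 µM (0.183 and 0.129). CEBPB had 7 of 9 below every control (-0.55 ± 0.16; 0.0442). That call was lost without any 1 of the 3 controls (0.19, 0.242 and 0.0531) and without replicate 2 at 0.01 µM, 1 or 2 at 0.1 µM or 2 at 1 µM (0.0518, 0.0751, 0.0844 and 0.0675). PROX1 had 8 of 9 libraries above every control and did not pass (0.37 ± 0.13; 0.0676).

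At 1000 µM against these 9 libraries, 3 of the 8 factors were called, FOXA3, CEBPB and PROX1, all higher, against 30.1% of all features (16.2% higher and 14% lower). FOXA3 was 1.29-fold higher (log2 change 0.36 ± 0.12; edgeR adjusted p = 0.0268), a call lost without replicate 1 or 2 at 1000 µM (0.128 and 0.053). CEBPB was 1.38-fold higher (0.46 ± 0.16; 0.0388), with 2 of 3 libraries above all 9, and was lost without replicate 2 or 3 at 1000 µM (0.148 and 0.192) or 2 at 0.1 µM (0.0513). PROX1 was 1.27-fold higher (0.35 ± 0.12; 0.0365), which was lost without any of 6 single libraries: replicate 1 or 3 at 1000 µM (0.071 and 0.24), 2 or 3 at 0.01 µM (0.0604 and 0.0535), 3 at 0.1 µM (0.052) and 3 at 1 µM (0.0585). CEBPA did not differ past the threshold (0.07 ± 0.10; 0.647).

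A slope over the 7 doses, taken as steps 0 to 6, asks for a net rise or fall along the steps, which need not be steady. Here 3 of the 8 factors were called, HNF4A, FOXA3 and PROX1, all rising, against 29% of all features (14.5% rising and 14.5% falling). PROX1 rose by 0.08 ± 0.02 log2 per step (edgeR adjusted p = 0.0159), FOXA3 by 0.06 ± 0.02 (0.0249) and HNF4A by 0.03 ± 0.01 (0.0228). Without the 1000 µM group none of the 3 passed (0.237, 0.212 and 0.0638), and each call was also lost without 1 library, replicate 3 at 1000 µM for PROX1 (0.0642), replicate 1 at 1000 µM for FOXA3 (0.0705) and replicate 1 at 0 µM for HNF4A (0.0628). On linear dose HNF4A (edgeR adjusted p = 0.403) and FOXA3 (0.058) lost the call. None of the 3 rose at every step. Mean CPM fell from 10 to 100 µM for PROX1 (93.03 to 82.27) and HNF4A (381.5 to 364.8). For FOXA3 it fell from 0 to 0.01 µM (25.5 to 22.63). CEBPB did not pass over all doses (-0.04 ± 0.04; 0.459), but it fell by 0.14 log2 per step when the 1000 µM group was left out (adjusted p = 0.0261).

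Features outside the 8 that followed the same pattern over the 21 libraries were named by Pearson's r of log2 CPM, with no test. Dose means were not removed, so r covers differences between libraries of 1 dose as well as between doses. PROX1 was most like LATS1 (r = 0.979), a kinase of the Hippo pathway, ERCC6L2 (0.975) and TRIM33 (0.972). FOXA3 was most like NOB1 (0.96), which takes part in making the small ribosomal subunit, ITPK1 (0.953) and VAT1 (0.925). HNF4A was most like ZNF646 (0.931), ITIH5 (0.917) and ANKRD52 (0.915). Of the features named here, only VAT1 was not called on the slope (edgeR adjusted p = 0.0784).

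Among the factors themselves, FOXA1 and FOXA2 moved together across libraries (r = 0.795 over 21 libraries, and 0.883 after removing each dose mean). CEBPA and PROX1 moved in opposite directions (r = -0.761, and -0.8 within doses). FOXA2 and FOXA3 gave 0.633 and 0.713, and CEBPA and CEBPB 0.525 and 0.418. These are descriptions over libraries that share their medium, line and preparation.

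Several factors moved with the mitochondrial share of the library. The same relation was not computed for the other features, so whether it is particular to these factors was not tested. Over 21 libraries and 8 relations, FOXA1 rose with it (Pearson r = 0.705, permutation p = 0.00038, adjusted 0.002; Spearman rho = 0.697, p = 0.00066, adjusted 0.0018), and so did FOXA2 (r = 0.69, p = 0.00051, adjusted 0.002; rho = 0.719, p = 0.00039, adjusted 0.0018). NR5A2 did as well (r = 0.636, p = 0.0018, adjusted 0.0049; rho = 0.713, p = 5e-04, adjusted 0.0018). Without the 2 libraries farthest from the median share, r was 0.696 for FOXA1, 0.826 for FOXA2 and 0.698 for NR5A2, and after removing dose means it was 0.739, 0.664 and 0.606.

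CEBPA ran the other way (r = -0.479, permutation p = 0.03, adjusted 0.059; rho = -0.522, p = 0.016, adjusted 0.033), with r = -0.419 without the 2 farthest libraries and -0.414 within doses. For HNF4A, FOXA3, CEBPB and PROX1 r was 0.272, 0.235, 0.0959 and 0.404, and none passed after adjustment (0.31, 0.35, 0.68 and 0.11). Their rho was 0.44, 0.347, 0.0519 and 0.468 (adjusted 0.065, 0.14, 0.82 and 0.054). The calls of CEBPA at 10 µM and of PROX1 at 1000 µM held with the mitochondrial share as a covariate, while those of HNF4A at 10 µM (adjusted p = 0.053) and of CEBPA at 0.01 µM (0.0607) were lost. With it CEBPB at 100 µM (0.0452) and FOXA1 at 1000 µM against the 3 lowest doses (0.0489), both lower, were called. The part of this share in the levels of FOXA1, FOXA2 and NR5A2 was not tested.

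**Figure D4:**
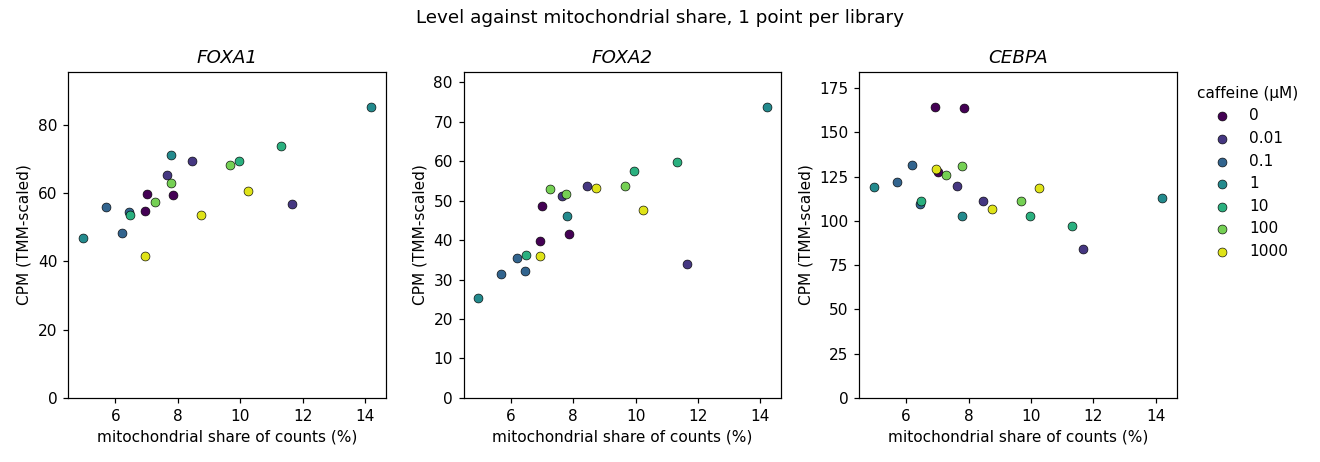
Level of FOXA1, FOXA2 and CEBPA in CPM against the mitochondrial share of counts in percent, 1 point per library, coloured by caffeine dose in µM. FOXA1 and FOXA2 climb from the library at 4.96% to the one at 14.2%, while CEBPA is highest in 2 control libraries near 7% to 8%.

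Transcripts beside the factors were read from 5 neighbouring or antisense RNAs, of which 2 were called at 1000 µM, 1 higher and 1 lower, a share near the 41.2% of all features. At 10 µM 3 of the 5 were called, against 22% of all features. CEBPA-DT, which starts just upstream of CEBPA on the other strand, stood at 4.16 ± 0.442 CPM (SD, n = 3) at 0 µM, 2.91 ± 0.259 at 10 µM and 2.42 ± 0.379 at 1000 µM. Its log2 change was -0.51 ± 0.16 at 10 µM (edgeR adjusted p = 0.029) and -0.78 ± 0.16 at 1000 µM (0.000953), so it was called lower at both doses, as CEBPA was. LINC00261, which neighbours FOXA2, stood at 36.2 ± 10.8 CPM at 0 µM, 66.0 ± 6.11 at 10 µM and 62.5 ± 15.4 at 1000 µM. It passed at 10 µM (0.86 ± 0.24; 0.016) and at 1000 µM (0.79 ± 0.24; 0.0126), whereas FOXA2 did not.

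HNF4A-AS1, which is transcribed within HNF4A on the opposite strand without sharing exon bases, was at 16.6 ± 3.16 CPM at 0 µM and 31.0 ± 4.09 at 10 µM (log2 change 0.91 ± 0.23; edgeR adjusted p = 0.011). At 1000 µM it was back at 16.5 ± 3.45 (-0.01 ± 0.23). CEBPB-AS1 (-0.54 ± 0.27; 0.115) and PROX1-AS1 (-0.37 ± 0.20; 0.146) were not called at 1000 µM. Exons are shared in part: CEBPA with the antisense RNAs AC008738.3 (659 bases) and AC008738.5 (482), CEBPB with CEBPB-AS1 (231), PROX1 with PROX1-AS1 (171), FOXA1 with TTC6 (16), and FOXA2 and LINC00261 with AL121722.1 on the same strand (70 and 4779). The use of strand in counting is not given in the sources used here, so reads from bases shared by opposite strands may be counted to either partner. For the bases shared with AL121722.1 on the same strand, knowing the use of strand would not settle this.

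Of the proteins known to bind or restrain the factors, 17 were listed and 15 tested. At 1000 µM 9 were called higher and 3 lower, against 20.6% of all features in each direction. Their median log2 change was 0.55 (all features -0.03). The list was chosen with earlier results of these data known, so its share called is not independent of them. TLE1, a Groucho co-repressor recruited by forkhead proteins, was 1.57-fold higher (log2 change 0.65 ± 0.10; edgeR adjusted p = 5.67e-05). PPARGC1A, the coactivator PGC-1α that works with HNF4A, went from 7.36 ± 0.578 CPM to 15.7 ± 2.82 (1.09 ± 0.17; 9.83e-05). TRIB1, a pseudokinase that directs the C/EBPα protein to degradation, was 1.54-fold higher (0.62 ± 0.10; 0.000137). NCOR1, a nuclear receptor co-repressor, was 1.67-fold higher (0.74 ± 0.14; 0.000532).

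NR0B2, the atypical nuclear receptor SHP that represses HNF4A and NR5A2, was not called (0.24 ± 0.16; edgeR adjusted p = 0.254). Its relative NR0B1 was among the 2 that were not tested. DDIT3, which pairs with C/EBP proteins and blocks their binding, was among the 3 lower ones (-0.59 ± 0.13; 0.00191) and is named here after its value was seen. Along the slope 5 of the 15 rose and 1 fell, against 29% of all features called. At 10 µM 5 were called higher and 1 lower, against 22%.

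All 27 other liver transcription factors on the list were tested, and at 1000 µM 5 were called higher and 5 lower, with a median of -0.05, a share no higher than the 41.2% of all features called. TBX3, a T-box factor of the embryonic liver bud, went from 60.1 ± 4.25 CPM at 0 µM to 76.0 ± 7.7 at 10 µM and 226 ± 22.2 at 1000 µM, a 3.75-fold rise (log2 change 1.91 ± 0.13; edgeR adjusted p = 1.17e-08). NR1H4, the bile acid receptor FXR, went from 14.01 ± 0.981 to 7.38 ± 0.967 CPM (-0.92 ± 0.12; 1.46e-05). HHEX, a homeobox factor of the early liver, was at 0.648 of the control level (-0.63 ± 0.10; 0.000132). ONECUT2 was 2.04-fold higher (1.03 ± 0.18; 0.000276).

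CEBPD, another C/EBP gene, was at 0.482 of the control (log2 change -1.05 ± 0.24; edgeR adjusted p = 0.00189) and is named here after its value was seen. Along the slope 4 of the 27 rose and 5 fell (29% of all features were called), and at 10 µM 4 were called higher and 3 lower (22% of all features).

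Of 25 genes known as targets of the factors in hepatocytes, 23 were tested, and at 1000 µM 2 were called higher and 7 lower, with a median of -0.12, beside 41.2% of all features called (20.6% each way). AFP, the fetal albumin relative that liver tumour cells secrete, was at 3497 ± 248 CPM at 0 µM and 2163 ± 184 at 1000 µM (log2 change -0.69 ± 0.10; edgeR adjusted p = 4.48e-05). APOC3, an apolipoprotein, went from 91.9 ± 11.8 to 47.1 ± 10.9 CPM (-0.96 ± 0.18; 0.000387), and RBP4, the plasma carrier of retinol, was at 0.664 of the control (-0.59 ± 0.10; 0.000182). TAT, the tyrosine aminotransferase of amino acid breakdown, was 1.65-fold higher (0.72 ± 0.13; 0.00025). ALB, the gene of serum albumin, did not pass (-0.07 ± 0.15; 0.739). Along the slope 1 of the 23 rose and 6 fell, beside 14.5% of all features each way.

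The list of bile duct and progenitor genes held 9, of which 7 were tested, and at 1000 µM 2 were called higher and 1 lower, with a median of -0.02, a share near the 41.2% of all features. SPP1, the secreted protein osteopontin, was 1.46-fold higher (log2 change 0.55 ± 0.12; edgeR adjusted p = 0.00172) and SOX4 1.25-fold higher (0.32 ± 0.10; 0.0158). KRT19, a keratin of bile ducts, was at 0.669 of the control (-0.58 ± 0.19; 0.0199). Along the slope 1 of the 7 rose and none fell, beside 29% of all features called. Beside these changes the fibroblast marker list, carried by ACTA2 and PDGFRB, summed to 71.1 to 77 CPM at 0 µM and 44.6 to 50.3 at 1000 µM, while its defining members COL3A1 and DCN were at 0 or 1 count; the part of this in the changes above was not tested.

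**Figure D5:**
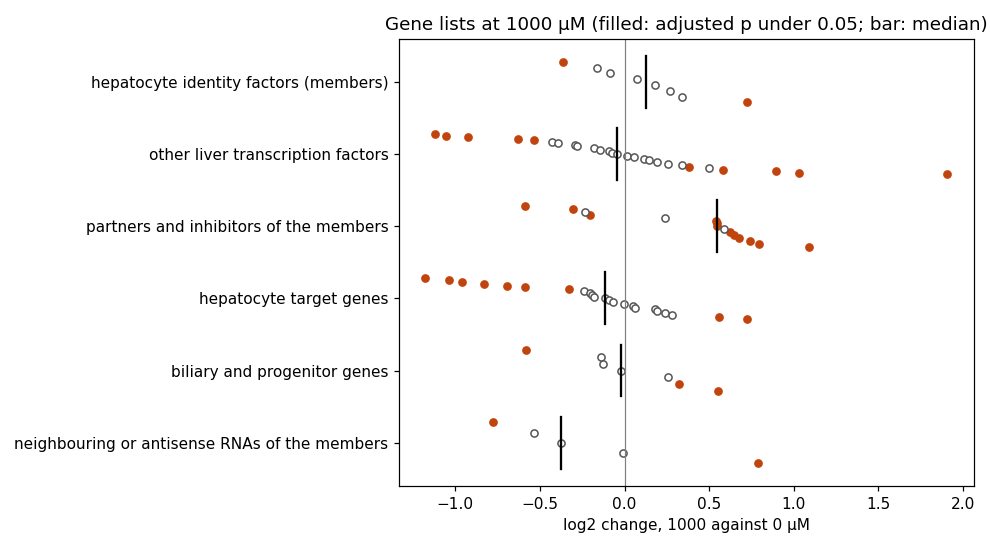
Log2 change at 1000 against 0 µM for every tested gene of each list, 1 point per gene, with the list's median as a bar and filled points at an adjusted p under 0.05. The partners and inhibitors sit mostly to the right (median 0.55), and the target genes have 7 filled points on the left and 2 on the right.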

How the data were processed

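Poly(A) RNA of HepG2 cells was sequenced from 21 samples. The authors deposited 1 table of counts per gene, whole numbers that are not normalized; HISAT2, DESeq2 and GRCh38 are named per the submitters' processing notes, and the counting program, annotation and use of strand are not given in the sources used here. The other 21 columns of per-sample values were not used. The series text names another compound for its control group, and the sample labels, followed here, call those samples untreated with 0 µM caffeine.

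Samples were grouped by the caffeine dose in their labels. Counts were scaled by TMM and filtered by filterByExpr (min.count 10), and 1 model over 7 groups (14 residual degrees of freedom) was fitted with edgeR 4.0.16 in R 4.3.3 by the quasi-likelihood test, with Benjamini-Hochberg adjustment over all 17468 features and a threshold of 0.05. Log2 CPM used a prior count of 2. Symbols were joined by Ensembl ID without version. Of 32937 Ensembl IDs, 32338 were found in GENCODE 29, which gave exon lengths. Each mitochondrial relation used 100000 permutations, two-sided.

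Totals ran from 28043623 to 40827833 counts. Pairs of replicates differed by a mean chi-square of 5.45 to 207 per gene (1 would be sampling noise), so samples differed by more than counting error and none were merged. Nothing beyond the submitters' wording says how the replicates were cultured, and p-values set a difference against the spread between these samples. Alternatives were RLE and upper quartile scaling, no filter, DESeq2 1.42.0, a replicate block, the mitochondrial share as covariate, only the groups compared, a threshold of 0.01, each library left out in turn and, chosen after seeing the data, leaving out the 3 libraries with a mitochondrial share over 11%. The slope was also fitted without 1000 µM and on linear dose. The 8 factors and the lists were chosen with earlier results of these data known. From each list the genes named are up to 4 with the smallest p-value among those called at 1000 µM, plus NR0B2, ALB and AFP (1 further gene that this rule names is not reported here); DDIT3 and CEBPD were named after their values were seen, and the list of 5 neighbouring RNAs is given whole; for each factor called on the slope, the 3 features of highest r are named. The fit was tested on simulated data.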

Additional observations from a re-analysis of the deposited data

How the results depend on the processing

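No change of a factor that passed its test changed direction under any alternative. Of the recomputed values of single factors 1203 kept their side of the threshold, 77 lost and 21 gained it. The 1203 include values of results not called in the main fit, which had no call to lose. The 77 include calls lost by setting the threshold at 0.01. DESeq2 called 2193 features and 2 factors at 0.01 µM, 521 features at 0.1 µM, 1410 features and 2 factors at 1 µM, 2078 and 1 at 100 µM, and 2500 features for the 3 lowest doses together against 0 µM. At an adjusted p under 0.01 edgeR called 0 features at 0.01 µM, 1255 features and 1 factor at 10 µM, 41 features at 100 µM, 4696 features and 1 factor at 1000 µM (and 1 bile duct or progenitor gene), 0 features and 0 factors for the 3 lowest doses together, 3181 and 0 for 1000 µM against them, and 2639 and 0 for the slope. Fitting only the groups compared gave 2 features and 0 factors at 0.01 µM and 1 feature at 0.1 µM. At 100 µM these fits gave 4015 features and 3 factors (FOXA2, CEBPB and PROX1), and at 1000 µM 7094 features and 1 factor. They gave 0 and 0 for the 3 lowest doses together, and 3583 features and 0 factors for 1000 µM against them. Without a filter on low counts there were 101 features at 0.1 µM and 230 features and 1 factor at 1 µM. At 1000 µM there were 6382 features and 1 factor without this filter. With the mitochondrial share in the fit there were 1 feature and 0 factors at 0.01 µM. At 100 µM that fit gave 1399 features and 1 factor. Without the 3 libraries of highest mitochondrial share there were 0 features and 0 factors at 0.01 µM. There were then 95 features at 0.1 µM, 3 at 1 µM, and 2359 features and 1 factor at 100 µM. At 1000 µM there were 8533 features and 4 factors, and for the 3 lowest doses together 2310 features. Upper quartile scaling left 5322 features and 1 factor at 1000 µM against the 3 lowest doses. The slope without 1000 µM called 1051 features and 1 factor, and on linear dose 5469 features and 1 factor. Leaving out 1 library at a time gave 0 to 1079 features and 0 to 1 factors at 0.01 µM. At 0.1 µM it gave 0 to 865 features, and at 1 µM 0 to 1264. At 10 µM it gave 1260 to 3707 features and 2 to 3 factors, and at 100 µM 26 to 1133 features. At 1000 µM it gave 5141 to 6882 features and 1 to 3 factors. For the 3 lowest doses together it gave 0 to 2686 features and 0 to 3 factors. For 1000 µM against them it gave 3071 to 6402 features and 1 to 3 factors. Fits on fewer libraries called fewer features in some comparisons and more in others, and the cause was not tested. Scaling moved the median of all features by 0.045 log2 or less in size. NR5A2, at 13 to 34 counts, is limited by depth.

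Replicate numbers did not pair the samples. Over 63 pairs of libraries with the same number, the deviations from the dose means correlated at -0.437 to 0.249 (median 0.0199), with 11 over 0.1. Over 126 pairs with different numbers they correlated at -0.324 to 0.505 (median -0.00497), with 30 over 0.1. Of 21 libraries, 3 correlated best with their own number. With a replicate block edgeR called 0 features and 0 factors at 0.01 µM, 445 features at 100 µM and 852 for the 3 lowest doses together.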
